A study of Mus musculus with 24 samples.

Results

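The genes described here are the feedback inhibitors of cytokine signalling Socs1, Socs2, Socs3 and Cish, the target genes Pim1, Pim2 and Osm, and the transcription factors Stat3, Stat5a and Stat5b. They are 10 of the 17741 genes named on the arrays, and each was read by 1 probe. The list was chosen by name with earlier genotype results of these data known, and the rule took the brightest probe of each gene, so that for these genes the KO and WT levels are a description. No p-value is printed for them, and whether they passed the threshold of the fit across all probes is given as part of that description. The rule has no threshold.

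Cytokine receptors of blood cells carry JAK kinases, which phosphorylate the receptor and then a STAT protein. STAT dimers move to the nucleus and bind DNA, and among the genes they switch on are their own inhibitors. SOCS1 and SOCS3 bind JAK kinases or receptors and block the kinase, CIS (the product of Cish) and SOCS2 occupy phosphorylated receptor sites, and all 4 carry a SOCS box, through which a ubiquitin ligase is recruited. In blood-forming cells STAT5 acts below the receptors for thrombopoietin, erythropoietin, interleukin-3 and GM-CSF, and Cish, Socs2, Pim1 and Osm are textbook STAT5 targets.

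The study set blood-forming cells lacking BAP1 against WT cells. BAP1 is a deubiquitinase of the nucleus that removes ubiquitin from histone H2A. All mice were C57BL/6, and per the labels tamoxifen was given to delete BAP1 throughout the body. Tamoxifen is named for WT and KO mice alike, and neither the driver of the deletion nor the ages are stated in the labels. RNA of sorted bone marrow cells was amplified by in vitro transcription, labelled with Cy5 and measured on 24 arrays. The 4 groups were KO and WT LSK cells (cells without lineage markers that carry Sca1 and Kit, the fraction enriched for stem cells) and KO and WT myeloid progenitors (cells without lineage markers or Sca1 that carry Kit). Each group held 2 mice with 3 arrays per mouse, and no mouse gave both populations: LSK cells came from KO mice 2 and 4 and WT mice 1 and 3, myeloid progenitors from KO mice 7 and 8 and WT mice 5 and 6. Values below are log2 expression values, each the mean of 3 arrays of a mouse, so 1 unit is a doubling. A brighter probe is not a more abundant transcript, and levels are compared only within a gene.

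Arrays of the same mouse correlated at a median r of 0.994 over all probes, arrays of another mouse of the same group at 0.987, of the other genotype at 0.978 and of the other population at 0.959. The level of Bap1 was 11.96 and 11.84 in KO LSK cells, against 11.55 and 11.45 in WT LSK cells, and 11.67 and 11.85 in KO myeloid progenitors, against 11.54 and 11.59 in WT myeloid progenitors. It was thus not lower in KO mice, and the place of its probe relative to the deleted part is not stated, so the probe does not check the labels. The Y-linked gene Kdm5d was read in WT mouse 1 (7.88) and WT mouse 5 (8.15) and lay between 5.93 and 6.02 in the other 6 mice. By this probe sex is not balanced over genotype. Xist, the other sex-linked gene measured, was at 7.37 in WT mouse 1 and 7.28 in WT mouse 5. It was at 7.83 in WT mouse 3, 7.51 in WT mouse 6 and 7.80 to 7.87 in KO mice, so it set mice 1 and 5 apart only narrowly. The LSK sort was reflected in the mean of its markers: 10 of 12 stem cell markers were measured, and their mean was 11.76 and 11.57 in KO LSK cells and 12.18 and 11.75 in WT LSK cells, against 9.90 to 10.07 in the 4 mice of the myeloid progenitor groups. Kit, used in both sorts, and Gata2 hardly differed (13.19 and 12.20 in WT LSK cells, against 12.97 and 12.19 in WT myeloid progenitors). A granulocyte list had a mean of 10.87 in WT LSK cells, against 10.25 in WT myeloid progenitors. A monocyte and macrophage list had 9.35, against 10.17. The share of mature cells in the sorts was not tested. Ly6a, which encodes Sca1, is not among the named genes, and Slamf1 lay between 5.78 and 6.29 in all groups, at the low end of the array's range.

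Promoter windows of 300 bases, 250 before and 50 after a transcript start, were found for 8 of the 10 genes in the RefSeq table of GRCm38.p6. They were searched for TTCNNNGAA, the palindromic core that STAT dimers bind, which reads the same on both strands. The core stood in the windows of Cish and Socs3, 2 of the 8 genes (25%), against 8.86% of the 13980 measured genes with a window. Cish held it more than once, as did 0.457% of all 32851 windows. Windows of Socs1, Pim1, Pim2, Stat3, Stat5a and Stat5b held no match within these bases, which says nothing of sites elsewhere. The stretches that hold the cores are shown because both genes are among the inhibitors described next, with the cores in capitals:

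Cish, chr9:107296559-107296688, plus strand, positions -100 to 30 from the transcript start: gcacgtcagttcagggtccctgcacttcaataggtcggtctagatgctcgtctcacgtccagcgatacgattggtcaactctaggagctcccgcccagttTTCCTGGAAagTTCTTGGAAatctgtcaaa
Socs3, chr11:117969427-117969556, minus strand, positions -190 to -61 from the transcript start: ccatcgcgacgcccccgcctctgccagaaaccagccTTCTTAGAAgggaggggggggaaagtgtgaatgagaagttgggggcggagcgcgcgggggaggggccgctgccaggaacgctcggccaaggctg

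The cores of Cish begin at positions 1 and 12 from the transcript start its window uses, and that of Socs3 at position -154 from its own. A match is a description of the letters and does not show that a STAT protein binds there. Cish lies on chromosome 9 (107296659 to 107302784) and Socs3 on chromosome 11 (117966079 to 117970336) in GRCm38.p6. The Socs3 window belongs to a transcript start inside that span, so its core (117969512 to 117969520) lies before that start but within the outermost bounds of the gene.

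Cish, Socs2 and Socs3 were each about 4-fold higher in KO than in WT myeloid progenitors, and Socs2 and Cish were also higher in both KO than in both WT mice of the LSK groups. The differences of Socs1 were small beside these in both populations. Over the 4 inhibitors the median log2 difference was 1.01 in LSK cells and 2.04 in myeloid progenitors, beside 0.02 and 0.00 over all genes. These genes were listed with such results known, so nothing is read from that gap. In bulk samples of this kind, more cells of a type and more RNA per cell cannot be told apart.

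In myeloid progenitors, Cish was at 11.04 and 11.94 in KO mice, against 9.38 and 9.63 in WT mice. Both KO mice lay above both WT mice, and the difference was 1.99 ± 0.32 (SE), or 3.97-fold. In LSK cells Cish was at 13.42 and 13.29 in KO mice, against 12.42 and 11.69 in WT mice, a difference of 1.30 ± 0.32 or 2.46-fold, again without overlap. The KO mice of the myeloid progenitor group thus spread by nearly 1 unit, while those of the LSK group lay close together.

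Socs2, which encodes the inhibitor best known for restraining growth hormone signalling, stood at 10.48 and 11.22 in KO myeloid progenitors, against 8.50 and 9.0 in WT myeloid progenitors. The difference of 2.10 ± 0.30 amounts to 4.29-fold. Its level in LSK cells was 12.51 and 11.91 in KO mice, against 10.55 and 10.75 in WT mice, which differ by 1.56 ± 0.30 or 2.94-fold. In neither population did the mice of the 2 genotypes overlap. The mean of KO myeloid progenitors even lay level with WT LSK cells, higher by 0.20, and the mice of those groups overlapped.

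Socs3, the inhibitor that acts on the shared receptor subunit gp130 and on the G-CSF receptor, had the widest difference in myeloid progenitors, at 9.80 and 9.49 in KO mice, against 7.51 and 7.42 in WT mice. That is 2.18 ± 0.32, or 4.52-fold, and the mice of each genotype lay within 0.31 of each other. In LSK cells the values were 11.60 and 11.19 in KO mice, against 11.19 and 10.16 in WT mice, and there the genotypes met: WT mouse 1 stood at the level of KO mouse 4. The LSK difference of 0.72 ± 0.32 was 1.23 without mouse 1 and 0.20 without mouse 3, so it rests on which WT mouse is kept.

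Socs1, a strong inhibitor of interferon and interleukin signalling, was at 8.69 and 9.03 in KO myeloid progenitors, against 8.44 and 8.67 in WT myeloid progenitors, which differ by 0.31 ± 0.28. In LSK cells it was at 10.03 and 9.20 in KO mice, against 9.57 and 9.43 in WT mice, where the KO mice lay on either side of the WT mice. The size of the Socs1 differences, 0.31 and 0.11 (± 0.28 each), was near the gap between mice of 1 group, which had a median of 0.30 over the members and groups and reached 1.02.

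**Figure D1:**
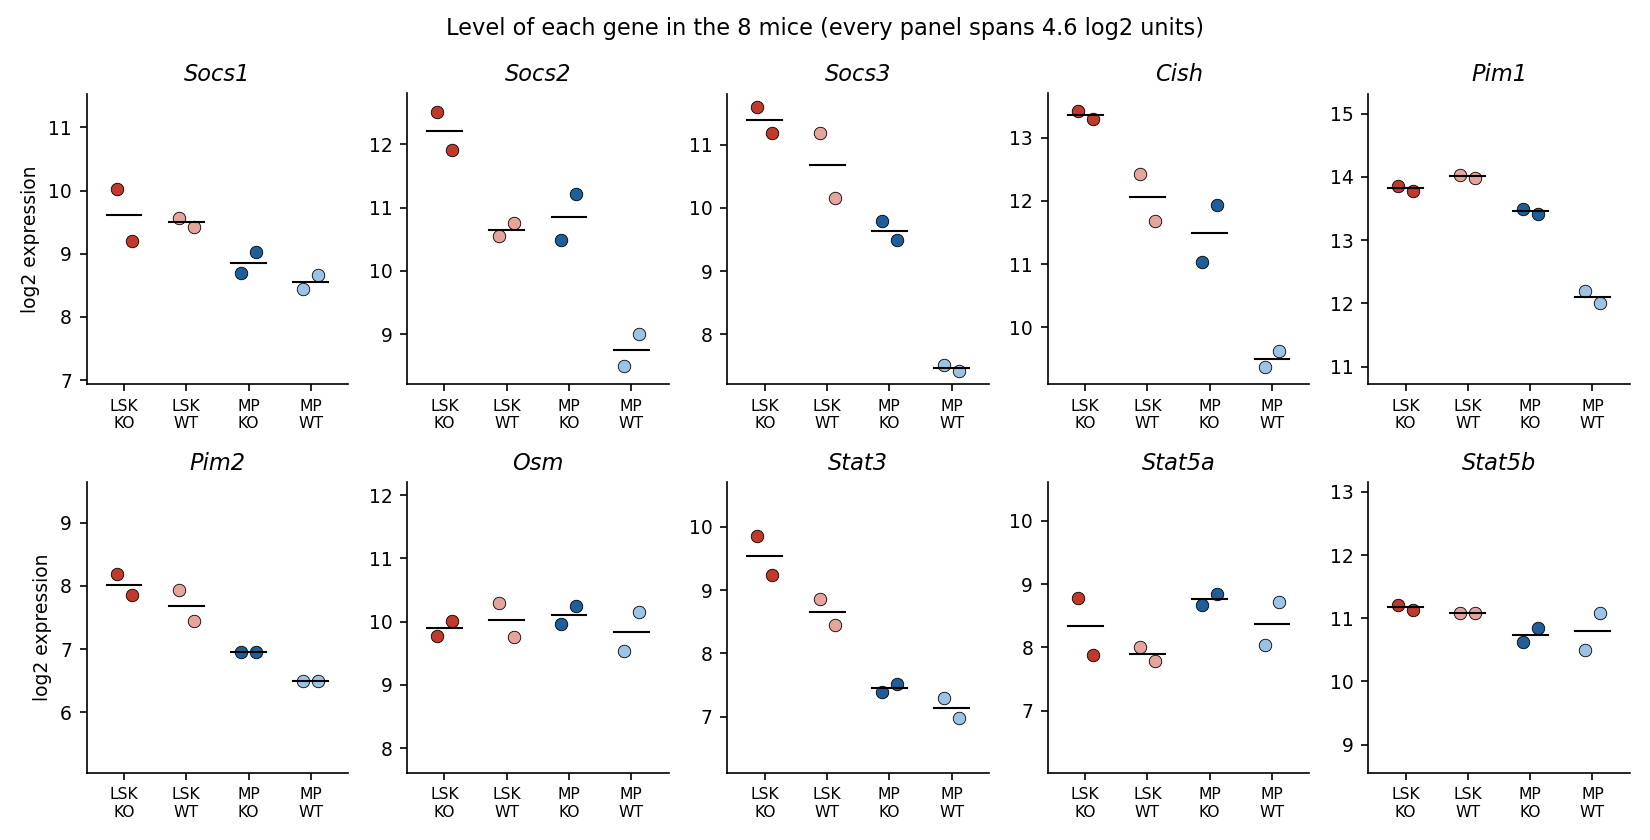
Log2 expression of the 10 genes in KO and WT LSK cells and KO and WT myeloid progenitors (MP); each point is a mouse (mean of 3 arrays) and each bar the mean of 2 mice. The KO myeloid progenitor points of Cish, Socs2, Socs3 and Pim1 stand above the WT points, and in LSK cells only those of Cish and Socs2 among these 4 genes do.

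Pim1 encodes a serine/threonine kinase that promotes survival and is degraded quickly, so its transcript level is thought to set much of its activity. In myeloid progenitors it was at 13.50 and 13.41 in KO mice, against 12.19 and 12.01 in WT mice, a difference of 1.36 ± 0.16 or 2.56-fold. In LSK cells the order was turned: 13.86 and 13.78 in KO mice, against 14.03 and 13.99 in WT mice, a difference of -0.19 ± 0.16. In neither population did the genotypes overlap, and the LSK gap was small.

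Pim2, which encodes a related survival kinase, had 6.96 and 6.95 in KO myeloid progenitors, against 6.5 and 6.5 in WT myeloid progenitors. Its LSK values were 8.19 and 7.85 in KO mice, against 7.93 and 7.45 in WT mice, and these overlap. The differences were 0.45 ± 0.19 in myeloid progenitors and 0.33 ± 0.19 in LSK cells. The myeloid progenitor values lie below the median of all probe means, 7.20, near the low end of the array's range.

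Osm encodes oncostatin M, a cytokine of the interleukin-6 family. It had 9.96 and 10.25 in KO myeloid progenitors, against 9.53 and 10.15 in WT myeloid progenitors, and 9.78 and 10.01 in KO LSK cells, against 10.29 and 9.76 in WT LSK cells. The genotypes overlapped in both populations, with differences of 0.27 ± 0.27 in myeloid progenitors and -0.13 ± 0.27 in LSK cells. No group stood apart for this gene: each neighbouring pair in the order of the group means overlapped.

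Of the STAT genes themselves, Stat3 had the widest genotype difference in LSK cells, and Stat5b the narrowest in both populations. Stat3, which transmits interleukin-6 family and G-CSF signals, was at 9.85 and 9.24 in KO LSK cells, against 8.86 and 8.45 in WT LSK cells, without overlap and with a difference of 0.89 ± 0.25 or 1.85-fold. In myeloid progenitors it was at 7.39 and 7.51 in KO mice, against 7.30 and 6.97 in WT mice, a difference of 0.31 ± 0.25. Both KO mice again lay above both WT mice, by little.

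Stat5a and Stat5b encode the closely related STAT5 proteins, and whether each probe reads 1 of them alone is not known here. Stat5a was at 8.78 and 7.88 in KO LSK cells, against 8.01 and 7.78 in WT LSK cells, and at 8.67 and 8.85 in KO myeloid progenitors, against 8.03 and 8.71 in WT myeloid progenitors. Its genotypes overlapped in both populations, with differences of 0.44 ± 0.31 in LSK cells and 0.39 ± 0.31 in myeloid progenitors. Stat5b was at 11.21 and 11.13 in KO LSK cells, against 11.09 and 11.09 in WT LSK cells, and at 10.63 and 10.84 in KO myeloid progenitors, against 10.50 and 11.08 in WT myeloid progenitors. Its differences, 0.08 ± 0.23 in LSK cells and -0.05 ± 0.23 in myeloid progenitors, were smaller than their errors. The arrays read transcripts, so the phosphorylated STAT proteins that bind DNA were not measured. Stat5b, Stat5a and Stat3 are neighbours on chromosome 11, from 100780731 to 100939594 in GRCm38.p6.

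Against all genes, a gene was called where the limma p-value adjusted by Benjamini-Hochberg over all probes was under 0.05. In LSK cells 1 of the 10 members was called, Socs2, and it was higher in KO mice. Over all genes 4.64% were called in LSK cells and 1.74% were called as higher. In myeloid progenitors 4 of the 10 were called, Cish, Socs2, Socs3 and Pim1, all higher in KO mice, where 2.64% of all genes were called and 0.908% were called as higher. Both KO mice lay above both WT mice for 4 members in LSK cells, where 25.7% of all genes did, and for 7 members in myeloid progenitors, where 20.3% did. Nothing is read from these counts, since these contrasts were known when the genes were listed. The median log2 difference of the 10 members was 0.38 in LSK cells and 0.42 in myeloid progenitors.

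The calls were not equally firm over the 8 fits that each left out 1 mouse. Pim1 was called in myeloid progenitors in all 8, at 1.27 to 1.44. There leaving out mouse 6 ended the call of Socs3, leaving out mouse 5 that of Socs2, and leaving out mouse 5, 6 or 8 that of Cish, while the differences stayed at 2.02 to 2.33 for Socs3, 1.73 to 2.47 for Socs2 and 1.53 to 2.44 for Cish. In LSK cells Socs2 lost its call without mouse 1 or 2, at 1.25 to 1.86 over the 8 fits. Plain eBayes, without its trend and robust options, kept Pim1 alone of the calls in myeloid progenitors and ended that of Socs2 in LSK cells, which the Kdm5d covariate ended too. Without both WT mice with a Kdm5d signal, Pim1 and Socs3 were the members called in myeloid progenitors and 0 members were called in LSK cells.

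**Figure D2:**
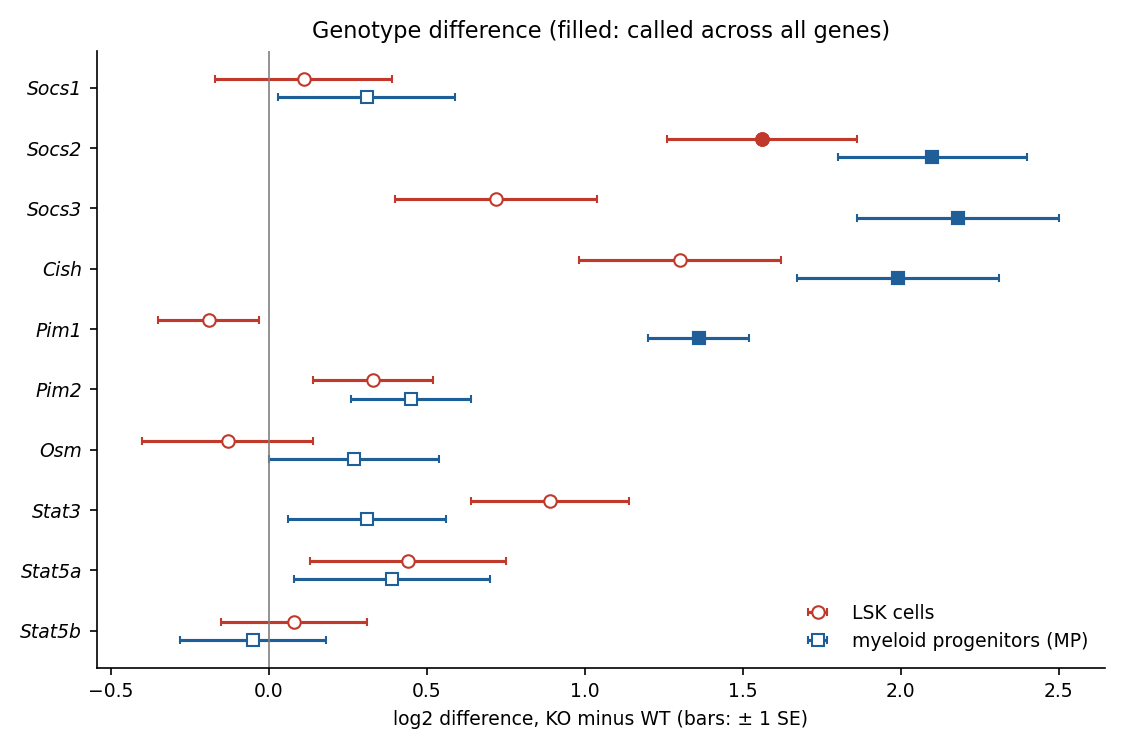
Log2 difference KO minus WT of each gene in LSK cells (circles) and myeloid progenitors (squares), with bars of 1 SE; filled symbols were called over all genes. Cish, Socs2, Socs3 and Pim1 are filled in myeloid progenitors, at 1.36 to 2.18, and Socs2 alone is filled in LSK cells, at 1.56.

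The genotype effect was next compared between the populations, as the effect in myeloid progenitors minus the effect in LSK cells. Pim1 showed the clearest contrast: 1.36 in myeloid progenitors and -0.19 in LSK cells, a difference of 1.55 ± 0.23. Of the 17741 genes 11 were called for this difference (0.062%), 8 of them with the higher effect in myeloid progenitors, and Pim1 was 1 of these. Its call was lost without mouse 1, 6, 7 or 8, while the difference stayed between 1.46 and 1.64. Socs3 followed with 1.46 ± 0.45, which was not called. The other inhibitors had 0.69 ± 0.45 for Cish, 0.54 ± 0.43 for Socs2 and 0.20 ± 0.39 for Socs1, and Stat3 had -0.58 ± 0.35 with the larger effect in LSK cells. None of these 4 was called, which at errors of this size does not show that the effects are equal.

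Seen from the populations, the same 8 mice give the gap between LSK cells and myeloid progenitors. In WT mice 8 of the 10 genes had both LSK mice above both myeloid progenitor mice, all but Osm and Stat5a, and the same count held in KO mice. The share of all genes with such an order was not computed, so nothing is read from this count. The gap for Pim1 was 0.36 in KO mice, against 1.91 in WT mice, and that for Socs3 was 1.75 in KO mice, against 3.21 in WT mice. For Cish it was 1.87 in KO mice, against 2.56 in WT mice, and for Socs2 1.36 in KO mice, against 1.90 in WT mice. Stat3 ran the other way, with 2.09 in KO mice, against 1.51 in WT mice. These gaps and the genotype differences are made from the same group means, so they show the same values from another side.

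For Socs2 and Cish, KO myeloid progenitors overlapped WT LSK cells, with group means higher by 0.20 for Socs2 and lower (-0.57) for Cish. For Socs3 and Pim1 both KO myeloid progenitor mice stayed below both WT LSK mice, by -1.03 and -0.56 between the means. In the order of group means, Socs1, Socs3, Cish, Pim2 and Stat3 had the highest mean in KO LSK cells, then WT LSK cells, then KO myeloid progenitors, and the lowest in WT myeloid progenitors. Neighbours in that order overlapped between KO and WT LSK cells for Socs1, Socs3 and Pim2, and between WT LSK cells and KO myeloid progenitors for Cish.

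**Figure D3:**
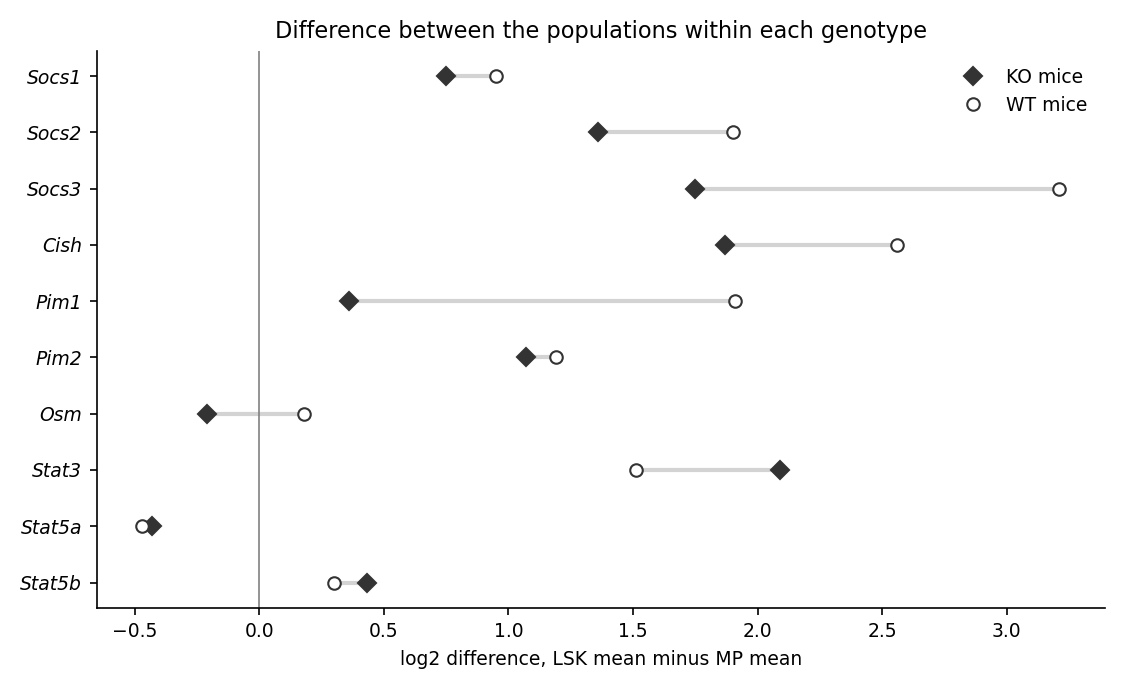
Log2 difference between the LSK mean and the myeloid progenitor (MP) mean of each gene, in KO mice (diamonds) and WT mice (open circles). The symbols lie farthest apart for Pim1 (0.36 in KO mice, against 1.91 in WT mice) and Socs3 (1.75 in KO mice, against 3.21 in WT mice).

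The rest of the pathway was described from 7 lists with 88 genes, of which 80 were measured. In LSK cells 5 of the 80 rose and 1 fell, with a median difference of 0.05, where 4.64% of all genes were called. In myeloid progenitors 2 rose and 2 fell, with a median of 0.02, where 2.64% of all genes were called. None of the 80 was called for the difference between the populations (limma, Benjamini-Hochberg), where 7 had an unadjusted p under 0.05. Plain eBayes called 0 of all genes for this difference, so its 0 of the 80 was fixed and says nothing of them. A fit of every array, with mice as random blocks, called 1 of the 80, Il5ra. That fit also called far more of all genes than the main fit did. The share of all genes at an unadjusted p under 0.05 was not computed. Nothing is therefore read from the unadjusted counts, here or for the lists below.

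Of 15 genes listed as other inhibitors, a role not tested here for any of them, 14 were measured. Among them were Socs4 to Socs7, the PIAS proteins that hold STATs in check, the CBL ligases and the phosphatases Ptpn1, Ptpn2, Ptpn6 and Ptpn11. None of the 14 was called in either population by limma after adjustment, though 5 in LSK cells and 1 in myeloid progenitors had an unadjusted p under 0.05. Socs4 was at 10.34 and 9.33 in KO LSK cells, against 8.90 and 9.01 in WT LSK cells (0.88 ± 0.29, adjusted p = 0.143). Pias4 had the largest difference in myeloid progenitors, 0.72 ± 0.22 with an adjusted p of 0.174 in the limma fit. Of the 4 ligase partners of the SOCS box (Cul5, Rnf7, Elob and Eloc) 0 were called in either population, with 0 in LSK cells and 1 in myeloid progenitors at an unadjusted p under 0.05. Cul5, the scaffold of that ligase, had the largest difference of them in myeloid progenitors, 0.55 ± 0.22 (limma adjusted p = 0.374).

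Among the kinases and other STAT factors, 3 of 4 JAK genes and 3 of 4 STAT genes were measured. No JAK gene was called by limma, and Jak3 differed by 0.41 in LSK cells and by 0.62 in myeloid progenitors (adjusted p = 0.419 and 0.267). At an unadjusted p under 0.05 there were 0 JAK genes in LSK cells and 1 in myeloid progenitors. Stat4, which transmits interleukin-12 signals, fell in myeloid progenitors: it was at 8.42 and 8.72 in KO mice, against 9.93 and 9.79 in WT mice (-1.29 ± 0.21, limma adjusted p = 0.00956). The call was lost without mouse 5 or 7, and also without both mice with a Kdm5d signal. In LSK cells Stat4 was at 10.38 and 10.22 in KO mice, against 11.12 and 10.90 in WT mice, which did not pass (-0.71 ± 0.21, adjusted p = 0.101).

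Of 24 receptor genes 22 were measured. Limma called 4 of the 22 in LSK cells and 2 in myeloid progenitors, beside 4.64% and 2.64% of all genes. Csf2rb, the beta subunit shared by the receptors for GM-CSF, interleukin-3 and interleukin-5, rose in LSK cells: 11.19 and 10.93 in KO mice, against 9.88 and 10.02 in WT mice (1.11 ± 0.20, limma adjusted p = 0.0122). Il3ra, the interleukin-3 alpha subunit that pairs with it, also rose in LSK cells (0.87 ± 0.21, adjusted p = 0.0449), but lost its call in each of the 8 fits without 1 mouse. Its call was lost as well with LSK cells fitted alone, with plain eBayes, without both mice with a Kdm5d signal and with the Kdm5d covariate. The call for Csf2rb was lost without mouse 1 or 2, and also without both mice with a Kdm5d signal. Whether the Csf2rb probe also reads the close paralog Csf2rb2 is not known here.

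Il7r, the interleukin-7 receptor of lymphoid progenitors, fell in both populations. In LSK cells it was at 7.35 and 6.93 in KO mice, against 9.16 and 9.33 in WT mice (-2.11 ± 0.24, limma adjusted p = 0.00112), and this call held in all 16 alternatives. In myeloid progenitors it was at 6.45 and 6.33 in KO mice, against 8.36 and 7.64 in WT mice (-1.61 ± 0.24, adjusted p = 0.00599). There the KO mice lay at the low end of the array's range, and the call was lost without mouse 8 and with plain eBayes. The B cell marker list moved with it: 7 of its 8 genes were measured, and their mean was 7.70 and 7.46 in KO LSK cells, against 9.33 and 9.39 in WT LSK cells, and 7.73 and 7.64 in KO myeloid progenitors, against 8.92 and 9.22 in WT myeloid progenitors. The part of lymphoid cells in the Il7r result was not tested.

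Ghr, the growth hormone receptor whose signal SOCS2 restrains, rose in myeloid progenitors with 8.25 and 8.83 in KO mice, against 7.01 and 7.54 in WT mice (1.27 ± 0.26, limma adjusted p = 0.0264). The call was lost without mouse 5 or 8, and also with plain eBayes, without both mice with a Kdm5d signal and with the Kdm5d covariate. In LSK cells the values were 9.88 and 9.71 in KO mice, against 8.98 and 9.16 in WT mice, which did not pass (0.73 ± 0.26, adjusted p = 0.167). Lifr, the receptor for leukemia inhibitory factor, passed in LSK cells (0.50 ± 0.12, adjusted p = 0.0422) at dim levels of 6.68 and 6.90 in KO mice, against 6.44 and 6.13 in WT mice. That call was lost in 6 of the 8 fits without 1 mouse, without mouse 3, 4, 5, 6, 7 or 8. Kit, which the sort itself used, was at 12.78 and 12.79 in KO LSK cells, against 13.49 and 12.89 in WT LSK cells (adjusted p = 0.403).

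Of the 18 cytokine genes 16 were measured and 0 were called in either population by limma, with 0 in LSK cells and 3 in myeloid progenitors at an unadjusted p under 0.05. The largest difference was that of Il15 in both, -0.57 ± 0.28 in LSK cells and -0.83 ± 0.28 in myeloid progenitors (adjusted p = 0.353 and 0.219). Cytokines made by other cells of the marrow were not sampled by these sorts.

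Of 19 other textbook targets of STAT5 or STAT3, 18 were measured. Those that rose in LSK cells were Id1, an inhibitor of differentiation factors, and Cebpb, a factor of emergency granulopoiesis. Id1 was at 9.34 and 9.52 in KO mice, against 8.24 and 8.09 in WT mice (1.26 ± 0.25, limma adjusted p = 0.0181), a call lost without mouse 1, 3 or 4. Cebpb was at 10.85 and 10.32 in KO mice, against 9.66 and 9.44 in WT mice (1.04 ± 0.23, limma adjusted p = 0.034), a call lost without mouse 1, 2, 3, 7 or 8. That call was lost as well with LSK cells fitted alone, with plain eBayes, without both mice with a Kdm5d signal and with the Kdm5d covariate. Uncalled in LSK cells were Bcl3, with 1.07 ± 0.41 (adjusted p = 0.238), and the survival gene Bcl2, which was at 6.72 and 7.35 in KO mice, against 7.93 and 8.01 in WT mice (-0.94 ± 0.25, adjusted p = 0.0632).

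In myeloid progenitors Ccnd1, which encodes cyclin D1, rose: 9.40 and 9.60 in KO mice, against 8.74 and 8.08 in WT mice (1.09 ± 0.25, limma adjusted p = 0.0476). Its call was lost without mouse 1, 3, 6, 7 or 8, with myeloid progenitors fitted alone and with plain eBayes. Tfrc, the transferrin receptor, had the larger but more variable difference of 1.22 ± 0.44 (adjusted p = 0.314). The other targets thus numbered 2 of 18 called in LSK cells and 1 of 18 in myeloid progenitors, beside 4.64% and 2.64% of all genes.

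**Figure D4:**
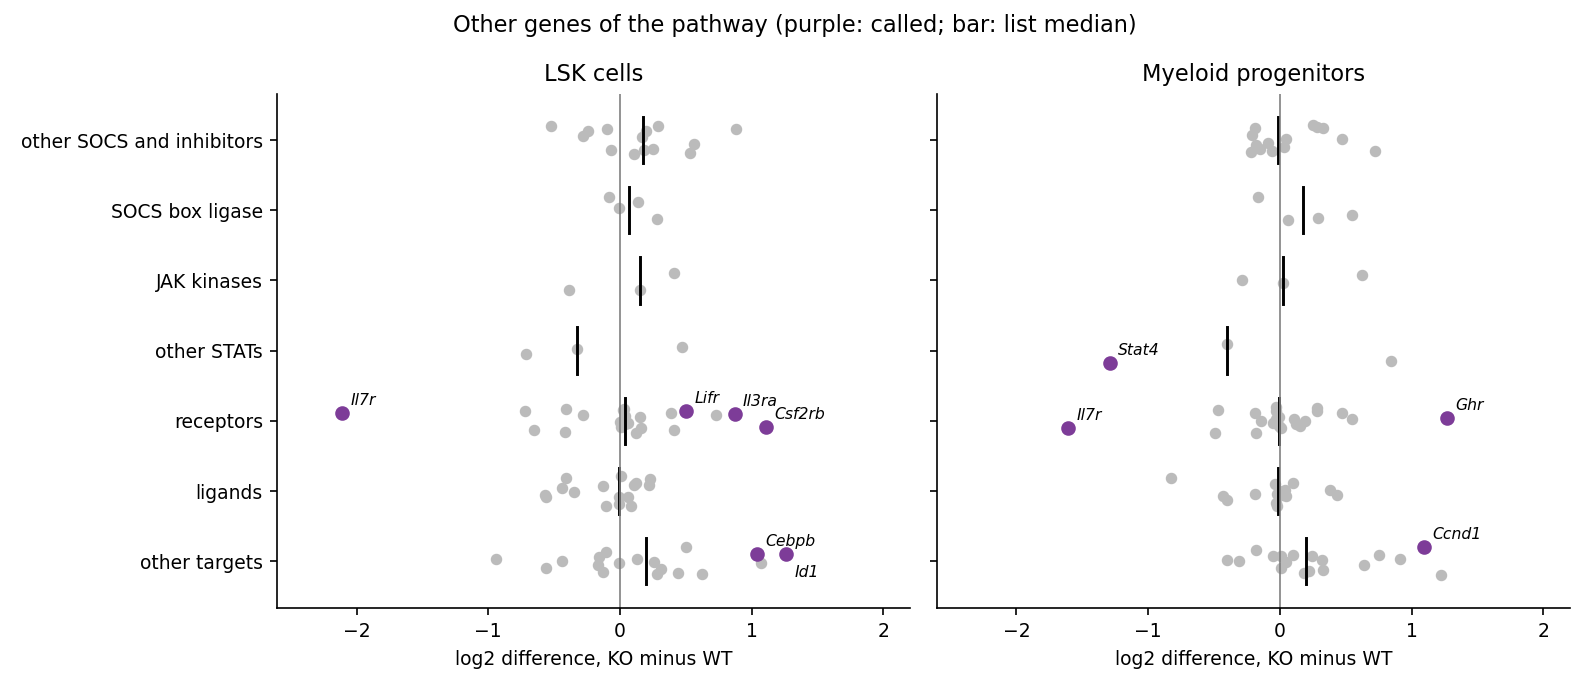
Log2 difference KO minus WT of the 80 measured genes of 7 pathway lists in LSK cells (left) and myeloid progenitors (right); each point is a gene, purple points were called over all genes and are named, and bars are list medians. Il7r lies at -2.11 in LSK cells and at -1.61 in myeloid progenitors.

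Marker lists of other cell types were read beside these results. The myeloid progenitor markers (8 of 8 measured) had a mean of 12.06 and 12.47 in KO LSK cells, against 11.15 and 11.84 in WT LSK cells, so that both KO mice lay above both WT mice. Of its members Ctsg, Elane and Cebpe rose in KO LSK cells (1.21, 1.91 and 0.91), while Irf8 was at -0.89 and uncalled. In the myeloid progenitor groups its mean was 13.45 and 13.25 in KO mice, against 13.55 and 13.53 in WT mice. The stem cell list had 9.94 and 10.07 in KO myeloid progenitors, against 10.05 and 9.90 in WT myeloid progenitors, and overlapped there. That mean hides members that differed: Cd34 fell in KO myeloid progenitors (-1.18, limma adjusted p = 0.00647). Mecom (1.01) and Meis1 (0.63) were higher there and uncalled, and 5 of the 10 measured members lay above 0.

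Other lists differed between the genotypes of the myeloid progenitor groups, though their members did not all go 1 way. The megakaryocyte markers (7 of 8 measured) had a mean of 9.36 and 9.34 in KO mice, against 8.69 and 8.69 in WT mice. Of these Gp5 (1.5) and Selp (1.83) rose, while Pf4 fell (-1.23, limma adjusted p = 0.023). The granulocyte markers (8 of 8) had 10.82 and 10.61 in KO mice, against 10.34 and 10.16 in WT mice, and Lcn2 was the member that rose (1.14). The mean of the monocyte and macrophage markers (6 of 8) was lower, with 9.80 and 9.55 in KO mice, against 10.30 and 10.03 in WT mice. There Mpeg1 (-1.26) and Adgre1 (-0.94) fell and Cd68 was at 0.76, uncalled. Mast cell and basophil markers (8 of 9) had 9.90 and 9.70 in KO mice, against 10.06 and 10.09 in WT mice, and their members split: Prss34 (-1.73) and Gzmb (-1.87) fell, while Mcpt8 rose (1.46, adjusted p = 0.00176). The means of the erythroid and of the T and NK cell markers overlapped between the genotypes in both populations. Such means hide members called in opposite directions in LSK cells. There Nkg7 (1.14) rose and Cd3d (-0.97) fell, Mcpt8 (2.42) rose and Prss34 (-2.79) fell, and Gp5 (1.16) rose and Pf4 (-1.21) fell. Of the monocyte and macrophage markers Cd68 (2.26) rose and Mpeg1 (-1.18) fell in LSK cells. The part of any of these lists, the myeloid progenitor markers included, in the Cish, Socs2, Socs3 and Pim1 differences was not tested.

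Socs3 belongs to the rapidly induced genes, as do the immediate early genes such as Fos and Egr1. A list of 8 immediate early genes, all measured, had a mean of 11.23 and 11.54 in KO LSK cells, against 12.88 and 11.36 in WT LSK cells, and 8.76 and 9.94 in KO myeloid progenitors, against 8.78 and 8.64 in WT myeloid progenitors. WT mouse 1 was thus the highest of the LSK mice for this list, and it was also the WT mouse in which Socs3 reached the KO level. In KO myeloid progenitors the list and Socs3 stood at 8.76 and 9.80 in mouse 7, and at 9.94 and 9.49 in mouse 8. What part immediate early induction has in the Socs3 values of either population was not tested, and this list was not among the planned ones.

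**Figure D5:**
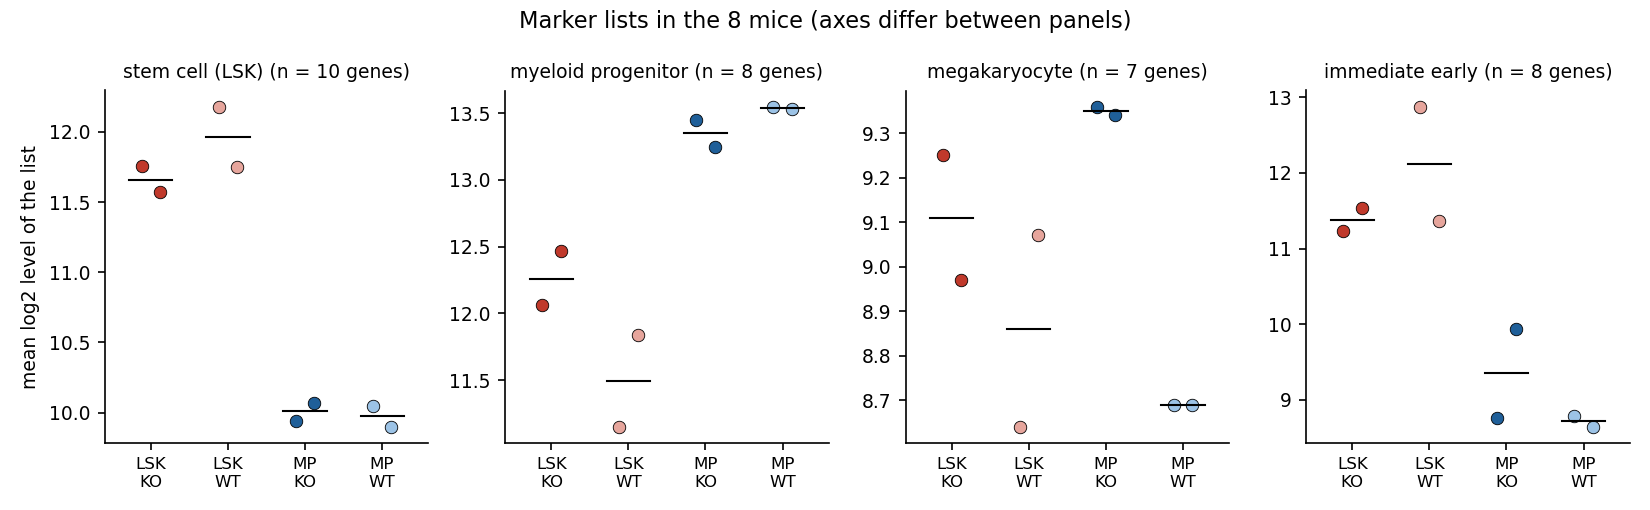
Mean log2 level of 4 marker lists in KO and WT LSK cells and KO and WT myeloid progenitors (MP); each point is a mouse and each bar the mean of 2 mice, and the axes differ between panels. The megakaryocyte mean separates the genotypes in myeloid progenitors (9.36 and 9.34 in KO mice, against 8.69 and 8.69 in WT mice), and WT mouse 1 has the highest immediate early mean, 12.88.

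The genes whose pattern over the 8 mice was most like that of an inhibitor were ranked by the mean absolute difference of the mouse values, after each gene's own mean was taken off, among 4985 genes that spanned at least 1 unit. For Cish these were Trib3 (0.200), Hgfac (0.204) and Smim6 (0.298), with Socs2 at rank 4 (0.322) and Socs3 at rank 6 (0.355). For Socs2 they were Cep170b (0.247), Hgfac (0.275) and Smim6 (0.281), again followed by Cish at rank 4, with Socs3 at rank 30 (0.482). For Socs3 they were Adam11 (0.288), Cish (0.355) and Trib3 (0.356), with Socs2 at rank 12.

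Hgfac and Smim6 thus stood near both Cish and Socs2. Trib3, a pseudokinase gene of the stress response, had group means of 11.24 in KO and 9.65 in WT LSK cells and of 9.39 in KO and 6.89 in WT myeloid progenitors. The likeness rests on 8 mice in 4 groups and says nothing of shared control.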

How the data were processed

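The labels give the genotype, population and mouse of each of the 24 arrays. The authors deposited log2 expression values, and limma is named, with no version, in the submitters' processing notes. The log scale was inferred from the range of the values, 5.66 to 15.93. Sorted values of any pair of arrays lie within 0.0451 at each rank, so a quantile normalization by the authors was inferred too. The labels and files name no scanner and no background correction.

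RefSeq symbols (GRCm38.p6) matched 18213 of 22439 probes as current and 2126 as synonyms, while 36 kept the array's name and 2064 had none. Each gene was read from its brightest probe. The 3 arrays of a mouse were averaged, and the 8 mouse means of all 4 groups were fitted together with limma 3.58.1 in R 4.3.3 (lmFit, eBayes with trend and robust options, 4 residual degrees of freedom, median prior 6.91). Two-sided limma p-values were adjusted by Benjamini-Hochberg across the 22439 probes, and a gene was called at an adjusted p under 0.05. The code of the fit was run on data simulated with normal noise, the model it assumes, which checks the code and not the results. Arrays carry no count depth, and 2 mice per group limit the precision.

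The members, the lists and the alternatives were chosen with earlier results of these data known. All members were described. Of each pathway list the called genes and up to 2 uncalled genes with the largest difference could be named with values, and for Cish, Socs2 and Socs3 the 3 genes of most similar pattern. Kit, Il5ra and the single cell type markers were named outside this rule after their values were seen. The immediate early list was added to the planned lists.

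Alternatives were a fit of every array with mice as random blocks, the same plus a block for array number, the compared population alone, plain eBayes, brighter probes, median-centred arrays, leaving out each mouse, leaving out both mice with a Kdm5d signal, and that signal as a covariate.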

Additional observations from a re-analysis of the deposited data

Results flagged for a closer look

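The log2 expression of Pim1 was 11.76 on 1 array of WT mouse 6 in the myeloid progenitor group, the lowest of the 6 WT arrays and apart from the other 5, which lay between 12.11 and 12.24, by Dixon's test. The KO arrays of that population lay between 13.38 and 13.61, above all of them. Such a test was run on 40 groups of 6 arrays, and chance marks about 1 group in 20. Arrays of the same mouse are not independent.

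The genotype effect on Pim1 differed between the populations: 1.36 in myeloid progenitors and -0.19 in LSK cells, a difference of 1.55 ± 0.23 (SE, 2 mice per group) that passed the threshold of the limma fit over all probes. Both KO mice lay above both WT mice in myeloid progenitors and below them in LSK cells. The call did not hold under every alternative, plain eBayes among those that lost it. The gene was listed with earlier results known, so the call is not independent evidence.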

How the results depend on the processing

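Over the 30 member differences (10 genes, 3 comparisons) and 470 values under the alternatives, 0 called differences reversed, 428 values stayed within 1 SD of the mice and 42 moved farther. Many of these values could not move. Plain eBayes, the random-block fits, the population alone and the brighter probes leave the size of a difference unchanged and alter only its call. Leaving out a mouse of the other population leaves a genotype difference unchanged too. The 428 values therefore do not measure how firm the differences are. Uncalled differences could change sign, such as Socs1 in LSK cells (-0.30 without mouse 2). Counts are given in the order LSK cells, myeloid progenitors, difference between populations. All genes called numbered 824, 469 and 11, members 1, 4 and 1, pathway genes 6, 4 and 0. With every array fitted and mice as random blocks these were 2671, 1629 and 454 genes, 4, 5 and 2 members, and 19, 12 and 1 pathway genes. Adding the array number as a replicate block gave 2570, 1549 and 402 genes, 4, 5 and 2 members, and 19, 12 and 1 pathway genes. Array numbers do not pair the mice: deviations of arrays of different mice with the same number correlated at a median r of 0.00567, and with different numbers at 0.00488. The compared population alone gave 479 and 541 genes, 2 and 4 members, and 3 and 4 pathway genes, and has no value for the difference. Plain eBayes called 549, 288 and 0 genes, 0, 1 (Pim1) and 0 members, and 2, 2 and 0 pathway genes. Probes above the median probe mean gave 777, 503 and 31 genes and 3, 4 and 1 members. Without both Kdm5d mice there were 331, 243 and 49 genes, 0, 2 and 0 members, and 1, 2 and 0 pathway genes, and with Kdm5d as a covariate 561, 338 and 13 genes, 0, 4 and 1 members, and 4, 3 and 0 pathway genes. Median-centred arrays gave 822, 468 and 11 genes and the same member counts. Without 1 mouse, genes called ran at 430 to 968 in LSK cells (lowest without mouse 1), 196 to 546 in myeloid progenitors (lowest without mouse 8) and 10 to 117 for the difference. Members ran at 0 to 2, 2 to 4 and 0 to 1, and pathway genes at 2 to 6, 1 to 5 and 0 to 2. Each member has 1 probe, so no other probe could be tried. The causes of these shifts were not tested. With 2 mice per group, a fit without 1 mouse assumes that the lone mouse varies like the others.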
